A study of Caenorhabditis elegans with 2 samples.

Results

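The genes described here are 32 genes of Caenorhabditis elegans that guide migrating cells and growing axons, of 19973 protein-coding genes in the annotation. They are a list of genes taken by name for their function, drawn up with earlier results of these data known, and fall into 5 secreted ligands, 9 receptors, 6 matrix proteins or matrix proteases and 12 intracellular proteins. The measurement was chromatin immunoprecipitation with sequencing (ChIP-seq) of UNC-39, a homeobox protein related to Drosophila Sine oculis, in whole L2 larvae. All animals came from strain OP186, which carries the mutation ed3 of unc-119 on chromosome III and the transgene insertion wgIs186, from which eGFP-tagged UNC-39 is made; the larvae were of mixed sex. The 2 biological replicates form the only group, so no condition was compared with another. Because whole animals were used, a peak cannot be assigned to a cell type, and the binding is that of a tagged protein from an inserted transgene.

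Axons and migrating cells in C. elegans steer by secreted cues such as netrin and Slit, which are read by receptors on the moving cell. The receptors act through guanine nucleotide exchange factors, Rac-type GTPases and actin-binding proteins, while the basement membrane provides the surface on which cells move. UNC-39 itself is known from mutants in which cells of the embryo, among them the CAN neurons, fail to migrate to their normal place.

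For each gene, the peak summits were taken that lay inside the gene or within 2000 bp of any of its annotated transcript 5′ ends, a stretch called its window here. Summits came from the authors' list of 30000 peaks called on both replicates together (the pooled list) and from the list of each replicate, with 30000 peaks for replicate 1 and 24978 for replicate 2. The value of a peak is the signal that the authors gave it in a call against a control library, and rank 1 is the highest signal in a list. Signals ran from 13 to 139 in the pooled list, from 7.86 to 64.9 in replicate 1 and from 7.23 to 77.8 in replicate 2, so signals were compared within a list only, and ranks are given across lists. A further list of 140 thresholded peaks, which the authors made for reproducibility between replicates, was identical to the 140 highest pooled peaks. A peak of a replicate was matched to a pooled peak when their summits lay within 100 bp of each other.

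The DNA under 4 of the highest peaks is shown as examples, upstream of a member's own 5′ end (unc-115, mig-38, mig-5) or deep inside a coding sequence (epi-1). The thresholded unc-73 peak (rank 91), in an intron and 137 bp inside a 5′ end of F55C7.2, was left out. Each stretch is 200 bp centred on the pooled summit, read in the direction of the gene 5′ to 3′, from the RefSeq genome of WBcel235, the same assembly as ce11. The stretches are chrX:10146674-10146873 (plus strand) for unc-115, chrIV:11593492-11593691 (plus strand) for mig-38, chrII:8185126-8185325 (minus strand) for mig-5 and chrIV:10675428-10675627 (plus strand) for epi-1. Capitals mark the words GAGAGA and CACACA and CAGCTG and CGCGCA on either strand.
unc-115: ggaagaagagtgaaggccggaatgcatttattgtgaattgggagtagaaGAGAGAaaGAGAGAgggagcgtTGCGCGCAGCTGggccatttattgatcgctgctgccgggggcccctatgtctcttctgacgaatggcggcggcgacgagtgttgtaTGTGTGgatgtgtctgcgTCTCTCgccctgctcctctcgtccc
mig-38: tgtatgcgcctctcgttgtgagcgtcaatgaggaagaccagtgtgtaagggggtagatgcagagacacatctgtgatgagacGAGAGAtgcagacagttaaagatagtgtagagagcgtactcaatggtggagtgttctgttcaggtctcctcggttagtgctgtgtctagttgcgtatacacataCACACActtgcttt
mig-5: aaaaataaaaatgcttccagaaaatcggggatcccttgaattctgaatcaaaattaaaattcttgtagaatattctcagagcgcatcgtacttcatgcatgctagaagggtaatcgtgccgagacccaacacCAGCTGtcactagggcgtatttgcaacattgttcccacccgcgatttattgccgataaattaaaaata
epi-1: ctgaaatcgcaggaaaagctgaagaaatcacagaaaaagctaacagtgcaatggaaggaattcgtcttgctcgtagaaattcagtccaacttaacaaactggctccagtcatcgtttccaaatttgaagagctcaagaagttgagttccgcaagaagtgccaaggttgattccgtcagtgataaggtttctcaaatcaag
The unc-115 stretch was 56.5% G and C and held GAGAGA 3 times, CGCGCA 2 times, and CACACA and CAGCTG once each, with the CGCGCA and CAGCTG matches overlapping each other. The mig-38 stretch held GAGAGA and CACACA, the mig-5 stretch held CAGCTG, and the epi-1 stretch, with its summit in a coding exon, held none of the 4 words. Among all 30000 pooled summits, 13.8% held GAGAGA, 10.9% held CACACA, 4.9% held CAGCTG and 3.57% held CGCGCA in the same 200 bp. Among the 140 thresholded summits these shares were 50%, 43.6%, 10% and 19.3%. Among the 172 summits in the windows of the 32 genes they were 17.4%, 14%, 4.65% and 2.33%. Other words were searched and not marked. Of all pooled summits, 6.69% held TGATAC, 8.17% held TGACAC and 16.3% held TGATAA. Of the thresholded summits, 5% held TGATAC, 11.4% held TGACAC and 5.71% held TGATAA. All 4 marked words and the unmarked TGACAC had higher shares among thresholded summits than among all pooled summits, while TGATAC and TGATAA had lower shares. The epi-1 stretch held TGATAA once. A match describes the letters in the window and is not a binding site.

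Of the 32 genes, 30 (93.8%) had a pooled summit in the window, where the background over all protein-coding genes was 78.7%. Thresholded summits lay in the windows of 3 genes, unc-115, unc-73 and mig-38, or 9.38% (exact binomial 95% interval 1.98 to 25%), against a background of 0.831%. A peak of rank 1000 or better lay in the windows of 8 genes (25%, interval 11.5 to 43.4%), against a background of 5.2%; the other 5 were epi-1, mig-5, unc-53, cam-1 and plx-2. The 32 windows were long, however, with a median of 13 kb and a range of 4.57 to 34.7 kb, against a median of 4.18 kb over all protein-coding genes, and a longer window has more room for summits. Among the 845 protein-coding genes with windows at least as long as the members' median, 2.37% had a thresholded summit and 17.5% a peak of rank 1000 or better. Of the 16 members in that class, 1 (unc-73) had a thresholded summit and 4 (unc-73, epi-1, unc-53 and cam-1) a peak of rank 1000 or better. The 16 members with shorter windows held the other 2 thresholded summits (unc-115 and mig-38) and the other 4 with a peak of rank 1000 or better (also mig-5 and plx-2), and were not compared with genes of like window length. The part of window length in the members' counts was not tested. With only the 2000 bp around 5′ ends counted, 3 members (unc-115, mig-5 and mig-38) had a peak of rank 1000 or better, against 4.33% of all genes. In the highest 140 peaks of each replicate's own list, replicate 1 had 1 member (unc-115), against 0.806% of all genes, and replicate 2 had the other two (unc-73 and mig-38), against 0.746%. No test of the list was made.

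**Figure D1:**
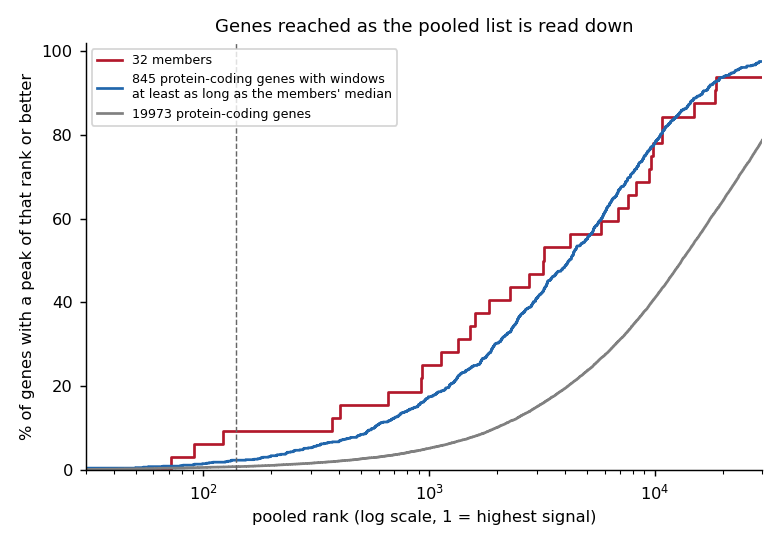
Percentage of genes whose window holds a pooled peak of a given rank or better, against pooled rank on a log axis, for the 32 members (red), the 845 protein-coding genes with windows at least as long as the members' median (blue) and all 19973 protein-coding genes (grey). The dashed line marks rank 140, the end of the thresholded list; at rank 1000 the lines stand at 25%, 17.5% and 5.2%, and further down the list the red and blue lines cross.

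The median best rank, that of the highest pooled peak of a gene, was 2980 for the 30 members with a summit, at a signal of 25, and 9466 for all protein-coding genes with a summit, at a signal of 19.4. Among genes with long windows it was 2528 for the 16 members and 4012 for all 845. Per length of window, pooled summits stood at 3.8 per 10 kb in the members' windows and at 3.11 per 10 kb in all protein-coding windows. Thresholded summits stood at 6.63 per Mb of member window (exact Poisson 95% interval 1.37 to 19.4, from 3 summits) and at 1.36 per Mb of all protein-coding windows (interval 1.12 to 1.63). Intervals on these counts and shares cover counting error only.

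**Figure D2:**
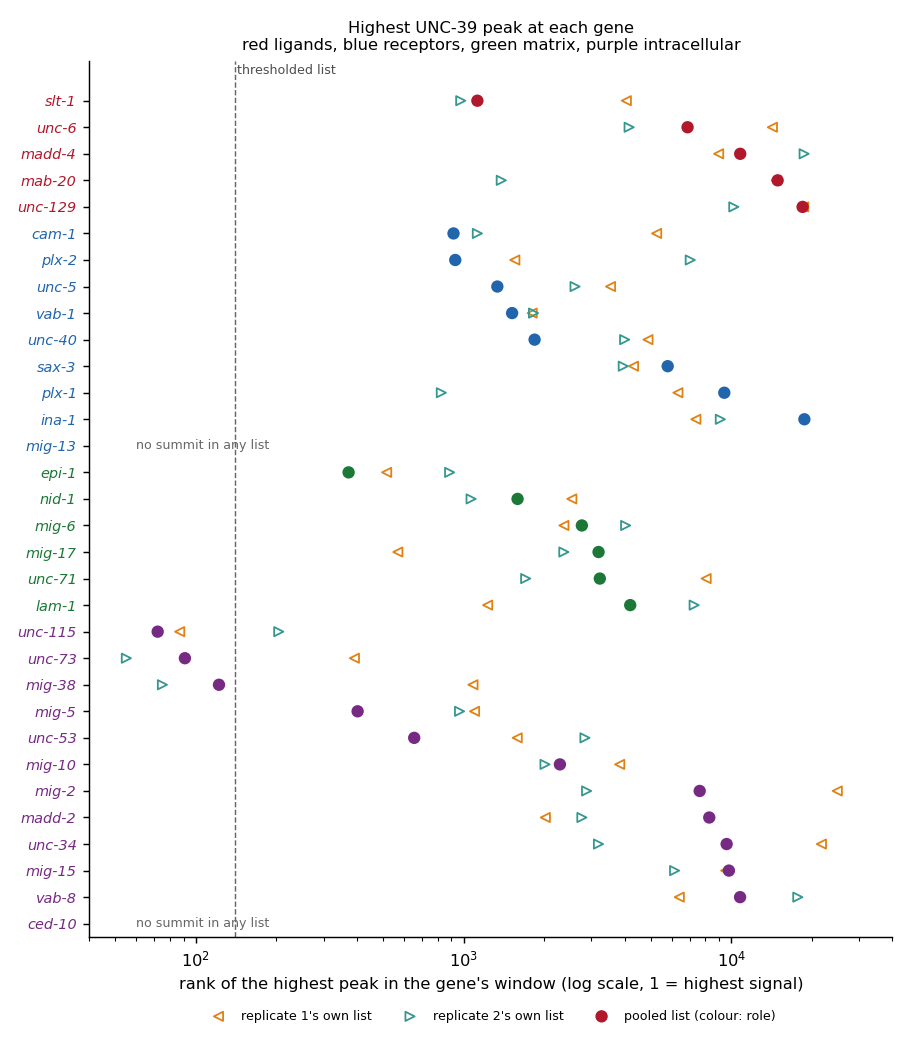
Rank of the highest peak in each gene's window on a log axis, in the pooled list (filled circles, coloured by role), in replicate 1 (left-pointing triangles) and in replicate 2 (right-pointing triangles), with genes ordered by role and then by pooled rank. The 3 genes left of the dashed line at rank 140 are the intracellular members unc-115, unc-73 and mig-38; mig-13 and ced-10 had no summit in any of the 3 lists.

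The intracellular proteins held the highest peaks. In all, 11 of the 12 had a pooled summit, 5 had a peak of rank 1000 or better, and the median best rank of the 11 was 2290. The highest peak of all members stood at unc-115 (WBGene00006839), which encodes an actin-binding LIM protein of growth cones. Its summit lay 118 bp upstream of the first 5′ end, in the peak chrX:10146592-10146955, outside any protein-coding gene. The signal was 55.15 in the pooled list (rank 72), 26.59 in replicate 1 (rank 87) and 24.32 in replicate 2 (rank 204). This was the highest peak of the gene in each of the 3 lists, with the summits of the replicates 38 bp apart. The unc-115 window of 8.25 kb held 4 more pooled summits. An intronic summit had a signal of 29.77 (rank 1138) and was matched at rank 912 in replicate 1 and rank 3964 in replicate 2.

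At mig-38 (WBGene00009587), whose product is needed for the turning of the distal tip cells that lead the growing gonad, the highest summit lay 652 bp upstream of the 5′ end, in the peak chrIV:11593410-11593773. The signal was 47.76 in the pooled list (rank 122), 17.08 in replicate 1 (rank 1695) and 32.51 in replicate 2 (rank 75). The replicates thus placed it at different heights, within the highest 140 peaks in replicate 2 and outside the highest 1000 in replicate 1. The summit also lay in an intron of the neighbouring gene F40F11.3, 411 bp inside its nearest 5′ end, so by position it belonged to either gene. A second mig-38 summit, in an intron 404 bp downstream of the 5′ end, had a pooled signal of 33.49 (rank 586) and no match in either replicate's list. In replicate 1's own list the highest peak of mig-38 was another, of rank 1084, in the last part of the gene and 7406 bp from that of replicate 2.

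The Dishevelled homologue mig-5, a transducer of Wnt signals, had its highest summit 203 bp upstream of its 5′ end, in the peak chrII:8185044-8185407. The pooled signal was 35.97 (rank 402), with 18.31 in replicate 1 (rank 1099) and 17.14 in replicate 2 (rank 966). The summit was the highest at mig-5 in both replicates, with the positions 8 bp apart. At unc-53, which encodes a cytoskeletal protein of the neuron navigator family and spans 31.4 kb, the highest summit lay in an intron, in the peak chrII:11075206-11075569, 3405 bp from the nearest unc-53 5′ end. Its signal was 32.78 in the pooled list (rank 654), 17.23 in replicate 1 (rank 1586) and 13.81 in replicate 2 (rank 2841), and again both replicates had their own highest unc-53 peak there. With 13 pooled summits, unc-53 was among the members with the most.

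The remaining thresholded peak stood at unc-73 (WBGene00006805), which encodes a Trio-like guanine nucleotide exchange factor. It covered chrI:4005390-4005753, in an intron of the 32.4 kb gene. The summit lay 2764 bp from the nearest unc-73 5′ end and 137 bp inside a 5′ end of F55C7.2, a gene that overlaps unc-73. The pooled signal was 51.89 (rank 91), with 19.38 in replicate 1 (rank 763) and 34.27 in replicate 2 (rank 55), so the peak stood among the highest of replicate 2 and lower in replicate 1. The highest unc-73 peak of replicate 1 was a different one, with signal 21.35 (rank 391), 20366 bp away. That second site was also a pooled summit, with signal 29.12 (rank 1280), and had no match in replicate 2. Of the 3 thresholded peaks, then, that at unc-115 lay nearest to a 5′ end of the member itself, and those at unc-73 and mig-38 lay nearer to a 5′ end of a neighbour.

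**Figure D3:**
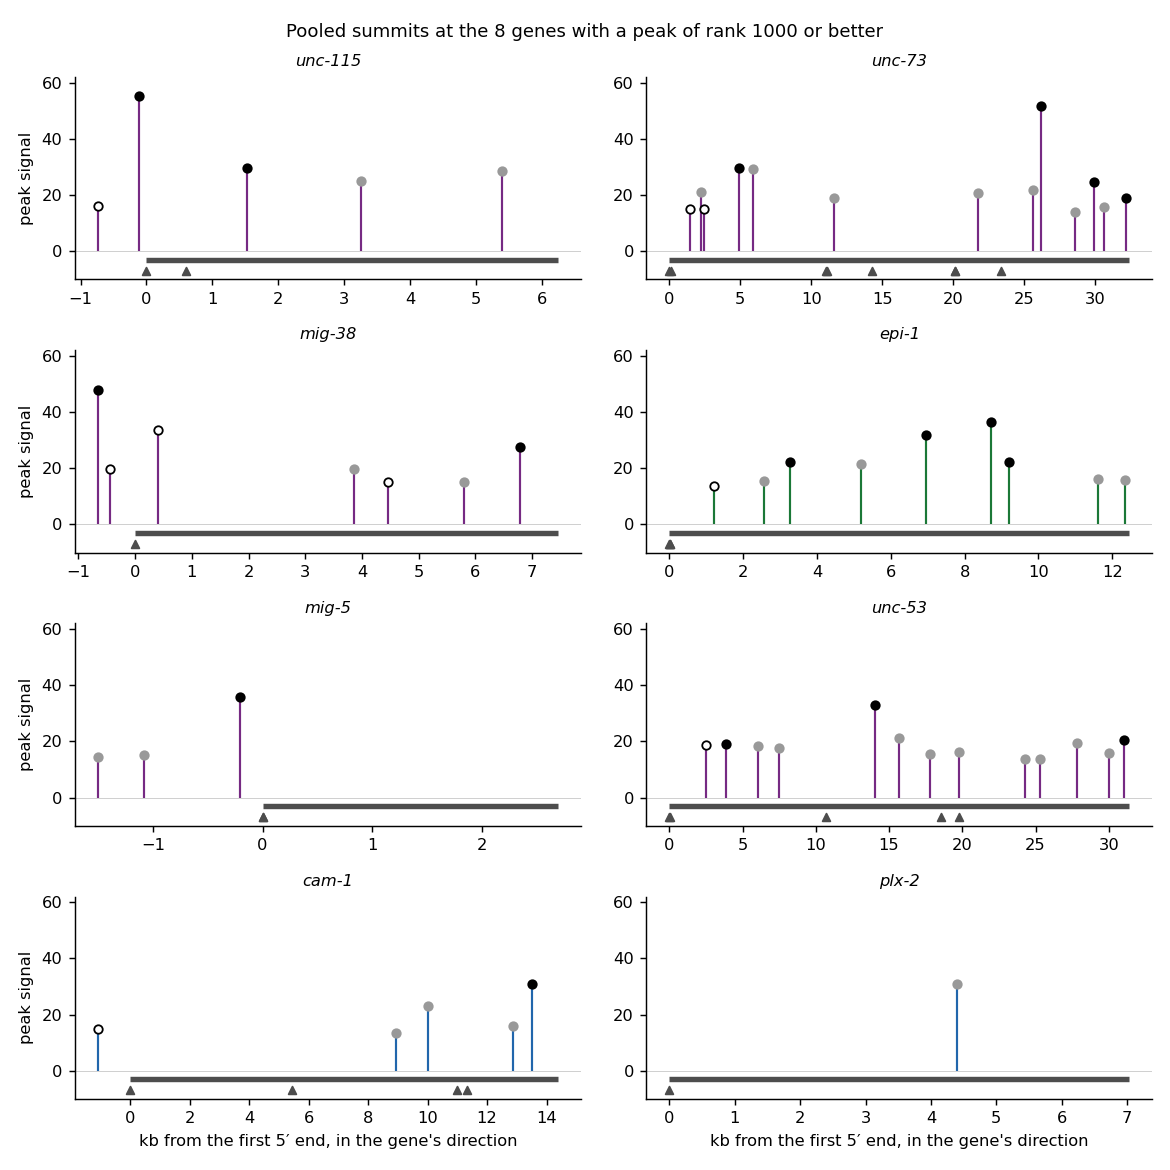
Pooled summits along the 8 genes with a peak of rank 1000 or better, with distance from the first 5′ end in kb on the horizontal axis and the pooled peak signal on the vertical axis. Grey bars are the genes and triangles their annotated 5′ ends; summits with a match in both replicates are black, in either replicate alone grey, in neither open. At unc-115 and mig-5 the highest summit stands just upstream of the first 5′ end and is black, while at unc-73, epi-1, unc-53 and cam-1 it stands inside the gene.

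The other intracellular members had lower peaks. The highest was at mig-10, the lamellipodin homologue that acts downstream of netrin and Slit receptors, with an intronic signal of 26.14 (rank 2290), matched at rank 3830 in replicate 1 and rank 8322 in replicate 2. The Rac-like GTPase gene mig-2 reached 20.52 (rank 7621), the TRIM-family gene madd-2 20.1 (rank 8275), the Enabled homologue unc-34 19.32 (rank 9608), the kinase gene mig-15 19.23 (rank 9798) and the kinesin-like gene vab-8 18.72 (rank 10786). Each of these 5 summits was matched in 1 replicate only, those of mig-2 and unc-34 in replicate 2 and those of madd-2, mig-15 and vab-8 in replicate 1. The Rac gene ced-10 had no summit in the window in any of the 3 lists, and its nearest pooled summit lay 156 bp outside the window with a signal of 18.41 (rank 11467).

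Among the receptors, 8 of 9 had a pooled summit, 2 had a peak of rank 1000 or better and the median best rank of the 8 was 1680. The highest peak stood at cam-1, the Ror receptor tyrosine kinase, in a coding exon at chrII:9296606-9296969, 2190 bp downstream of a cam-1 5′ end and 970 bp from the nearer 5′ end of C01G6.9. Its signal was 30.84 in the pooled list (rank 917), 13.82 in replicate 1 (rank 5263) and 16.4 in replicate 2 (rank 1211). The plexin gene plx-2, a semaphorin receptor gene, had 1 pooled summit in its 9.04 kb window, in a coding exon at chrII:14420308-14420671. It had a signal of 30.75 (rank 931) and was matched in replicate 2 at signal 11.19 (rank 7028). Replicate 1 had its own highest plx-2 peak at rank 1554, 199 bp from that of replicate 2 and too far from the pooled summit to be matched.

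The netrin receptors had lower peaks that were matched in both replicates. At unc-5 the highest summit lay in an intron of the 32.7 kb gene with a signal of 28.91 (rank 1337), matched at rank 3822 in replicate 1 and rank 9424 in replicate 2. It was 1 of 13 pooled summits in the window. At unc-40, the DCC homologue, the highest summit lay in an intron 2924 bp downstream of the 5′ end with a signal of 27.22 (rank 1842), matched at rank 4885 and rank 3997. Here the replicates' own highest peaks were the same site, 12 bp apart. The Eph receptor gene vab-1 reached 28.23 (rank 1518) in a coding exon 14483 bp from its 5′ end, matched at rank 20401 in replicate 1 and rank 1825 in replicate 2. The Robo homologue sax-3 reached 21.86 (rank 5787), the plexin gene plx-1 19.42 (rank 9417) and the alpha integrin gene ina-1 15.77 (rank 18753), the lowest best peak of the 30. At mig-13, a transmembrane protein of anterior migration, no list had a summit, and the nearest pooled summit lay 880 bp outside the window with a signal of 18.48 (rank 11312).

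All 6 matrix genes had a pooled summit, with best ranks from 372 to 4193 and a median of 2980. The highest stood at epi-1, a laminin alpha chain of the basement membrane, in a coding exon at chrIV:10675346-10675709, 8695 bp downstream of the nearest epi-1 5′ end and 4951 bp from the nearer 5′ end of K08C7.4. Its signal was 36.42 in the pooled list (rank 372), 18.26 in replicate 1 (rank 1118) and 17.43 in replicate 2 (rank 887). All 9 pooled summits of epi-1 lay in coding exons. The next of them had a signal of 31.78 (rank 779) and was the higher of the pair in replicate 1 (rank 516) and the lower in replicate 2 (rank 6101). The nidogen gene nid-1 reached 27.99 (rank 1591), the papilin gene mig-6 25.29 (rank 2766), the ADAMTS protease gene mig-17 24.66 (rank 3193), the ADAM gene unc-71 24.6 (rank 3228) and the laminin beta gene lam-1 23.39 (rank 4193). In the matrix group as a whole, 22 of 33 summits lay in coding exons, against 38% of the summits in all protein-coding windows. The 9 at epi-1 and all 4 at lam-1 were among the 22.

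The ligands had the lowest peaks of the 4 groups by median, with 5 of 5 having a summit, none a peak of rank 1000 or better and a median best rank of 10799. The highest stood at the Slit gene slt-1, 234 bp upstream of the 5′ end at chrX:14673912-14674275, with a signal of 29.8 in the pooled list (rank 1126), 13.06 in replicate 1 (rank 6589) and 7.43 in replicate 2 (rank 23557). In the replicates' own lists the highest slt-1 peaks stood 421 bp apart, at rank 4055 in replicate 1 and rank 976 in replicate 2. The netrin gene unc-6 reached 21.03 (rank 6866) in an intron 4523 bp downstream of its 5′ end. The punctin gene madd-4 reached 18.72 (rank 10799), the semaphorin gene mab-20 17.03 (rank 14900) and unc-129, which encodes a ligand of the TGF-beta family, 15.85 (rank 18468). The groups overlapped widely in best rank, and with 5 to 12 genes each their order is a description of these genes. The ligands also had the shortest windows, with a median of 9.47 kb, against 16 kb for receptors, 13.1 kb for matrix and 12 kb for intracellular members. Pooled summits per 10 kb were 4.24 for ligands, 3.32 for receptors, 4.61 for matrix and 3.76 for intracellular members. The part of window length in the order of the groups was not tested.

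The agreement between replicates varied from gene to gene. A peak of rank 1000 or better in the replicate's own list lay in the windows of 4 members in replicate 1 (unc-115, unc-73, epi-1 and mig-17), against 5.54% of all protein-coding genes. In replicate 2 there were 7 (unc-115, unc-73, mig-38, mig-5, epi-1, slt-1 and plx-1), against 5.4%, and 3 (unc-115, unc-73 and epi-1) were in both. At epi-1 the highest peaks of the replicates were different sites, 1750 bp apart. Peaks of the highest 10% of the list were found in both replicates at 8 members (25%), against 4.58% of all protein-coding genes, again without regard to window length. The peaks did not have to be the same site in both lists. Of these 8 genes, only unc-115 and mig-5 had the highest peaks of the replicates within 100 bp of each other. The highest peak of the gene was the same site, within 100 bp, in both replicates for 5 of 30 members (16.7%), namely unc-115, mig-5, unc-53, unc-40 and mig-2, and for 16.6% of the 12282 protein-coding genes with a summit in both lists. At mig-2 this site was the only summit of replicate 1 in the window, of rank 24884, and was not the highest pooled summit. The pooled summit matched to replicate 2 there had rank 11527 and lay 354 bp from a 5′ end of selt-1.1. Of the 172 pooled summits in member windows, 38 (22.1%, interval 16.1 to 29%) were matched in both replicates, against 19% of all pooled summits. A further 57 were matched in replicate 1 alone, 44 in replicate 2 alone and 33 in neither. Of the 10 member summits of rank 1000 or better, 8 were matched in both, against 79.3% of the highest 1000 pooled peaks.

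**Figure D4:**
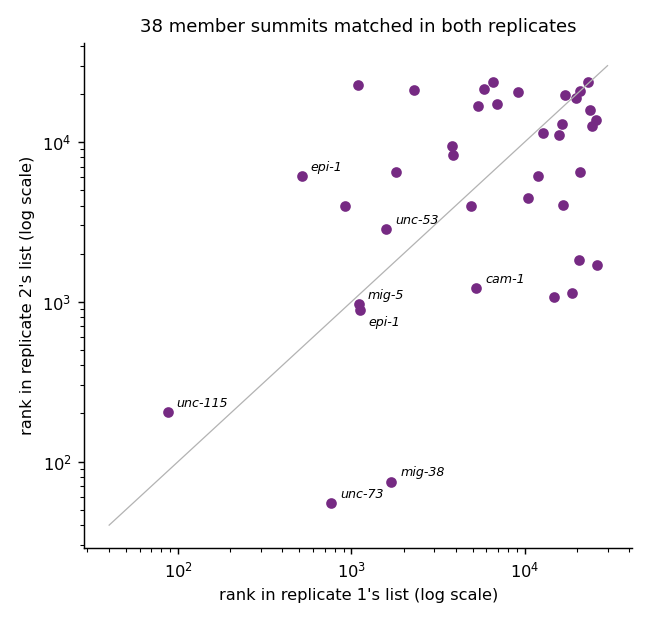
Ranks in replicate 1 (horizontal) and replicate 2 (vertical), both on log axes, for the 38 pooled summits in member windows that were matched in both lists, with the diagonal of equal rank in grey and the summits of pooled rank 1000 or better named. The unc-115 summit lies near the diagonal at rank 87 and 204, the unc-73 and mig-38 summits lie well below it (higher in replicate 2), and most of the others lie beyond rank 1000 in both.

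Introns held the largest class of summits in the member windows. Of the 172, 89 lay in an intron (51.7%, interval 44 to 59.4%), 58 in a coding exon (33.7%, interval 26.7 to 41.3%), 5 in an untranslated exon (2.91%) and 20 outside protein-coding genes (11.6%). Of the 26014 summits in all protein-coding windows, 34.1% lay in an intron, 38% in a coding exon, 5.65% in an untranslated exon and 22.3% outside. The bases each class takes up in these windows were not counted, and the member genes are long. Placed by the member gene alone, without its neighbours, 87 summits lay in an intron. The receptors (32 of 50 summits) and the intracellular members (40 of 69) accounted for most of those. Within 500 bp of an own 5′ end lay 25 of the 172 summits (14.5%), and for 118 (68.6%) the nearest 5′ end of any protein-coding gene was the member's. Neither share was worked out over all protein-coding windows, so whether these values are usual is not known.

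**Figure D5:**
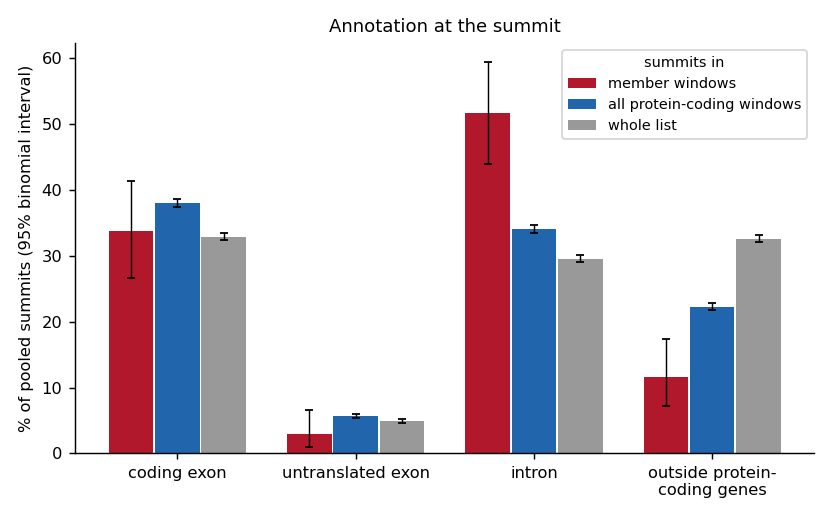
Share of pooled summits in coding exons, untranslated exons, introns and outside protein-coding genes, in percent with exact binomial 95% intervals, for the member windows (red, 172 summits), all protein-coding windows (blue, 26014) and the whole pooled list (grey, 30000). Introns hold 51.7% of the member summits and 34.1% of those in all protein-coding windows.

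A second list of 65 guidance and migration genes outside the 32 gave a lower count of thresholded summits. A thresholded summit lay in the window of 1 (1.54%, interval 0.0389 to 8.28%), against the background of 0.831%. A peak of rank 1000 or better lay in those of 11 (16.9%, interval 8.76 to 28.3%), against 5.2%. Both intervals overlapped those of the members. Per Mb of window there were 1.39 thresholded summits (interval 0.0351 to 7.72), against 1.36 in all protein-coding windows. Their windows had a median of 8.27 kb and their median best rank was 4180. Peaks of the highest 10% of the list were found in both replicates at 12 of the 65 (18.5%), against 25% of the members. The gene with the thresholded summit was unc-76, a FEZ-family protein of axon bundling and transport. Its summit lay 299 bp upstream of a 5′ end at chrV:15071279-15071642, with a pooled signal of 49.73 (rank 104), and was matched at rank 150 in replicate 1 and rank 6093 in replicate 2. In replicate 2's own list the highest peak in the unc-76 window was another, of rank 36.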

How the data were processed

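The authors mapped eGFP-tagged UNC-39 by ChIP-seq in 2 biological replicates, both of whole L2 larvae. Per the deposited file listings, peak calls by the authors used the alignments of each replicate and of both together, each with a control alignment, and derived the thresholded list with the irreproducible discovery rate. For aligner, peak caller and thresholds, names and settings were not given in the sources used here, and the control library was not analysed here. The deposited signal per peak is the authors' value, never negative and comparable within a list only; without read counts in the deposited lists, depth is unknown and could move a replicate's ranks.

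Genes, transcripts and 5′ ends were those of Ensembl release 115 on WBcel235, which is ce11. Peaks were ranked by signal within each list, and summits were placed in gene windows (2000 bp around any 5′ end plus the gene) and matched between lists within 100 bp, with Python 3.11.15, pandas 2.3.3, numpy 2.4.6 and scipy 1.17.1. Each word was looked for, on either strand, in 200 bp centred on a summit. Intervals are exact binomial (Clopper-Pearson) or exact Poisson at 95%. With 1 group no test between groups was possible, and peaks and genes are not replicates.

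The members, the 65 other guidance genes and the rank limit of 1000 were chosen with earlier results of these data known. All 32 members are accounted for; those with a thresholded summit, a peak of rank 1000 or better, or the best rank of their role are given in full, and other guidance genes are named only for a thresholded summit. Alternatives changed the distance, the window, the overlap, the threshold, the rank limit, the matching distance and the replicate; the comparison with genes of long windows was added after seeing the data.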

Additional observations from a re-analysis of the deposited data

How the results depend on the processing

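Members with a pooled summit numbered 27 to 31 throughout. They were 27 with 5′ ends only (background 75%), 28 with the gene body only (53.6%) and 31 with any overlap of the peak (80.8%). The 3 members with a thresholded summit became 1 when only the gene body counted (background 0.23%) and 0 with the 70 highest thresholded peaks (background 0.456%). With 32 genes, a count of 0 cannot be told apart from a background that low. The highest member peak, at unc-115, had rank 72. The count was 1 of 16 among genes of long windows. It was 1 to 2 when either replicate was left out, with unc-115 in replicate 1's highest 140 peaks and unc-73 and mig-38 in replicate 2's. The 8 members with a peak of rank 1000 or better became 3 when only 2000 bp around 5′ ends counted (background 4.33%), 5 at rank 500 (2.7%), 4 of 16 among long windows, and 4 to 7 with a replicate left out. The median best rank, 9.93% of the list, was 25.4% with 5′ ends only (all genes 34.9%) and 10.8 to 13.1% with a replicate left out. Thresholded summits per Mb of member window, 6.63, were 0 with the 70 highest peaks and 2.21 to 4.42 with a replicate left out. All protein-coding windows had 0.692 per Mb with the 70 highest peaks, and 0.453 Mb of member window is too short to tell 0 from that rate. The share matched in both replicates, 22.1%, was 15.1% at 50 bp (all summits 12.3%), 32% at 200 bp (27.6%) and 42% among peaks of rank 10000 or better, where it lay below the 45.9% of all summits. The other guidance genes with a thresholded summit, 1, were 0 in the gene body alone, 0 with the 70 highest peaks and 1 to 2 with a replicate left out. The causes were not tested.

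No paired analysis was possible because the 2 replicates form 1 group. The ce10 lists were not run. The results rest on peak lists without read depth, on 2 replicates whose highest peaks often differed in position, and on windows that overlap neighbouring genes, so a summit can count for more than 1 gene.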

Other observations

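Several members had a high peak in a single replicate's list that the pooled list did not rank alike. At plx-1 the highest peak of replicate 2 had a signal of 17.68 (rank 826), while the highest of replicate 1 had rank 6319 and the highest pooled summit rank 9417. At mig-17 the highest peak of replicate 1 had a signal of 20.29 (rank 568) at -1175 bp from the 5′ end, while replicate 2 had its highest at -92 bp with rank 2369. At mab-20, replicate 2 had a peak of rank 1383 at -1657 bp, while the highest pooled summit of the gene had rank 14900. The pooled summit matched to that peak had rank 22224 and lay in an intron of the neighbouring gene Y71G12B.18, 224 bp from its 5′ end. At ina-1 the highest pooled summit had no match in either replicate.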
